A study of Mus musculus with 15 samples.

Results

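Neutrophil granule and precursor genes were followed through CD11b+CD45hi and CD11b+CD45lo cells sorted from mouse brain. The set held 9 genes of the 38924 in the deposited tables, chosen by name: the specific granule genes Ngp, Camp, Ltf and Lcn2, the primary granule genes Mpo, Elane, Prtn3 and Ctsg, and the ficolin gene Fcnb. All mice were male, wild type C57BL/6J (B6) animals, 12 months old when the cells were collected. They ate a control chow diet (CD) or, from 2 months of age, a western diet (WD), and the libraries were 4 CD CD45hi, 4 CD CD45lo, 3 WD CD45hi and 4 WD CD45lo.

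Neutrophils build their granules in the bone marrow, in an order. Promyelocytes make the primary granule enzymes, myelocytes and metamyelocytes make the specific granule proteins, and a circulating neutrophil carries the finished proteins with little of the messenger RNA that made the earliest of them. In the sort, CD45lo marks the gate that holds microglia, the resident macrophages of the brain, while the CD45hi gate takes in myeloid cells with more surface CD45, neutrophils and monocytes among them.

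The libraries were poly(A)-selected and held 11951412 to 17912272 expected counts. Reads of mitochondrial genes took 17.7% to 20.5% of the counts in CD45hi libraries and 7.99% to 10.9% in CD45lo libraries. The 7 microglia markers on the list were all called lower in CD45hi cells on the CD, and 5 of 7 on the WD. P2ry12, the ADP receptor of microglia, differed by -1.58 ± 0.119 (SE) on the log2 scale on the CD. Of 15 mature neutrophil markers, 12 were called higher in CD45hi cells on each diet. The microglia markers had summed levels, in cpm (counts scaled to a common library size), of 6694 to 8083 in CD45hi and 13660 to 17428 in CD45lo libraries, so the CD45hi libraries held them too. In bulk samples fewer cells of a type and less RNA per cell cannot be told apart. The library labelled CD CD45hi replicate 2 and the one labelled CD CD45lo replicate 2 stood apart for the members, and values are given with and without them.

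The 9 members lie on 5 chromosomes of the mouse genome (GRCm38, the build called mm10). Camp (chr9:109847379-109849617), Ngp (chr9:110419747-110423012) and Ltf (chr9:111019271-111042767) lie within 1195389 bases of each other. Prtn3 (chr10:79874476-79883174) and Elane (chr10:79886247-79888215) are neighbours on the plus strand with 3072 bases and no other annotated gene between them. Fcnb (chr2:28076378-28084885) and Lcn2 (chr2:32384633-32388252) share chromosome 2, Mpo (chr11:87793581-87804413) lies on chromosome 11 and Ctsg (chr14:56099881-56102574) on chromosome 14. Prtn3 overlaps Plppr3 and Mpo overlaps Gm11505, each on the opposite strand. The library kit does not mark strand, so reads in those overlaps could belong to either gene.

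The sequence before 5 of these genes is shown because the specific granule genes were found in all libraries and the primary granule genes and Fcnb in fewer. Each is the stretch of the 250 bases before the RefSeq start (GRCm38.p6) that no GENCODE exon covers, read 5′ to 3′ on the strand of the gene. Ngp is chr9:110419558-110419746 on the plus strand, Ltf chr9:111019042-111019270 on the plus strand, Fcnb chr2:28084886-28085128 on the minus strand, Elane chr10:79886062-79886246 on the plus strand and Mpo chr11:87793534-87793580 on the plus strand. Capitals mark every match, on either strand, to TTNNGNAA (the C/EBP motif, reverse complement TTNCNNAA) or to GAGGAA (the PU.1 motif, reverse complement TTCCTC).
Ngp: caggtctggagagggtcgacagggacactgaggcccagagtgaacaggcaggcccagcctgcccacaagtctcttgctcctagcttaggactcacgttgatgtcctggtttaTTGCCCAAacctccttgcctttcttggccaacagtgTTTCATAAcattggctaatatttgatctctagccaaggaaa
Ltf: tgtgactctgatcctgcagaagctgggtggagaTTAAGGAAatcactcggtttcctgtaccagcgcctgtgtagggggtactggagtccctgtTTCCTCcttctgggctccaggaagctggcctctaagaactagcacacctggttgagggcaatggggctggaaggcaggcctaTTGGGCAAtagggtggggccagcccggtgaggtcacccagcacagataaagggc
Fcnb: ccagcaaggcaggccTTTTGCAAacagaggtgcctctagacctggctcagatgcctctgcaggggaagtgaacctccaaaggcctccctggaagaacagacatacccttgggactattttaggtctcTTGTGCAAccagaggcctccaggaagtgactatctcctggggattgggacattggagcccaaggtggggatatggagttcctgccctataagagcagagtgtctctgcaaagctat
Elane: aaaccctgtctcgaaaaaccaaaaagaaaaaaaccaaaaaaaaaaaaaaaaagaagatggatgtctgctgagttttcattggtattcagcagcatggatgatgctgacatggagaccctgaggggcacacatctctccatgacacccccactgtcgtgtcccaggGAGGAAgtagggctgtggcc
Mpo: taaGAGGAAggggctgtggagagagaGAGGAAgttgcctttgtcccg

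In the full 250 bases, a C/EBP match stood before 4 of the 9 members (Ngp, Ltf, Lcn2 and Fcnb), and in 36.8% of 32851 RefSeq windows of this length. A PU.1 match stood before 6 members (Mpo, Elane, Prtn3, Ctsg, Ltf and Lcn2), and in 23.3% of the windows. The RUNX motif TGTGGT (reverse complement ACCACA) stood before Ctsg alone among the members, and in 14% of the windows. In Fcnb the C/EBP matches began 235 and 123 bases before the start, and in Elane the PU.1 match began 85 bases before it. These are matches of letters and say nothing of binding.

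The specific granule genes were detected in all 15 libraries, and the primary granule genes and Fcnb in some. Above 3 counts, which is taken here as the smallest measurable value, Mpo was found in 9 libraries, Fcnb in 7, Elane in 6, Prtn3 in 3 and Ctsg in 2. Per length of transcript, Ngp had the highest level in every group. Its median in TPM, a level per length of transcript and size of library, was 583 in CD CD45hi, 382 in CD CD45lo, 151 in WD CD45hi and 162 in WD CD45lo cells. Lcn2 came next, with medians of 468, 120, 36.3 and 52.6 TPM in the same order. Ltf and Camp followed, Ltf with 77.5, 34.8, 9.05 and 15.2 TPM and Camp with 43.9, 55.0, 28.6 and 15.9 TPM. The ranges of neighbours in this order overlapped within every group. The median over all libraries was 0.69 TPM for Mpo, 0.15 for Elane and 0.12 for Fcnb, and it was 0 for Prtn3 and Ctsg.

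**Figure D1:**
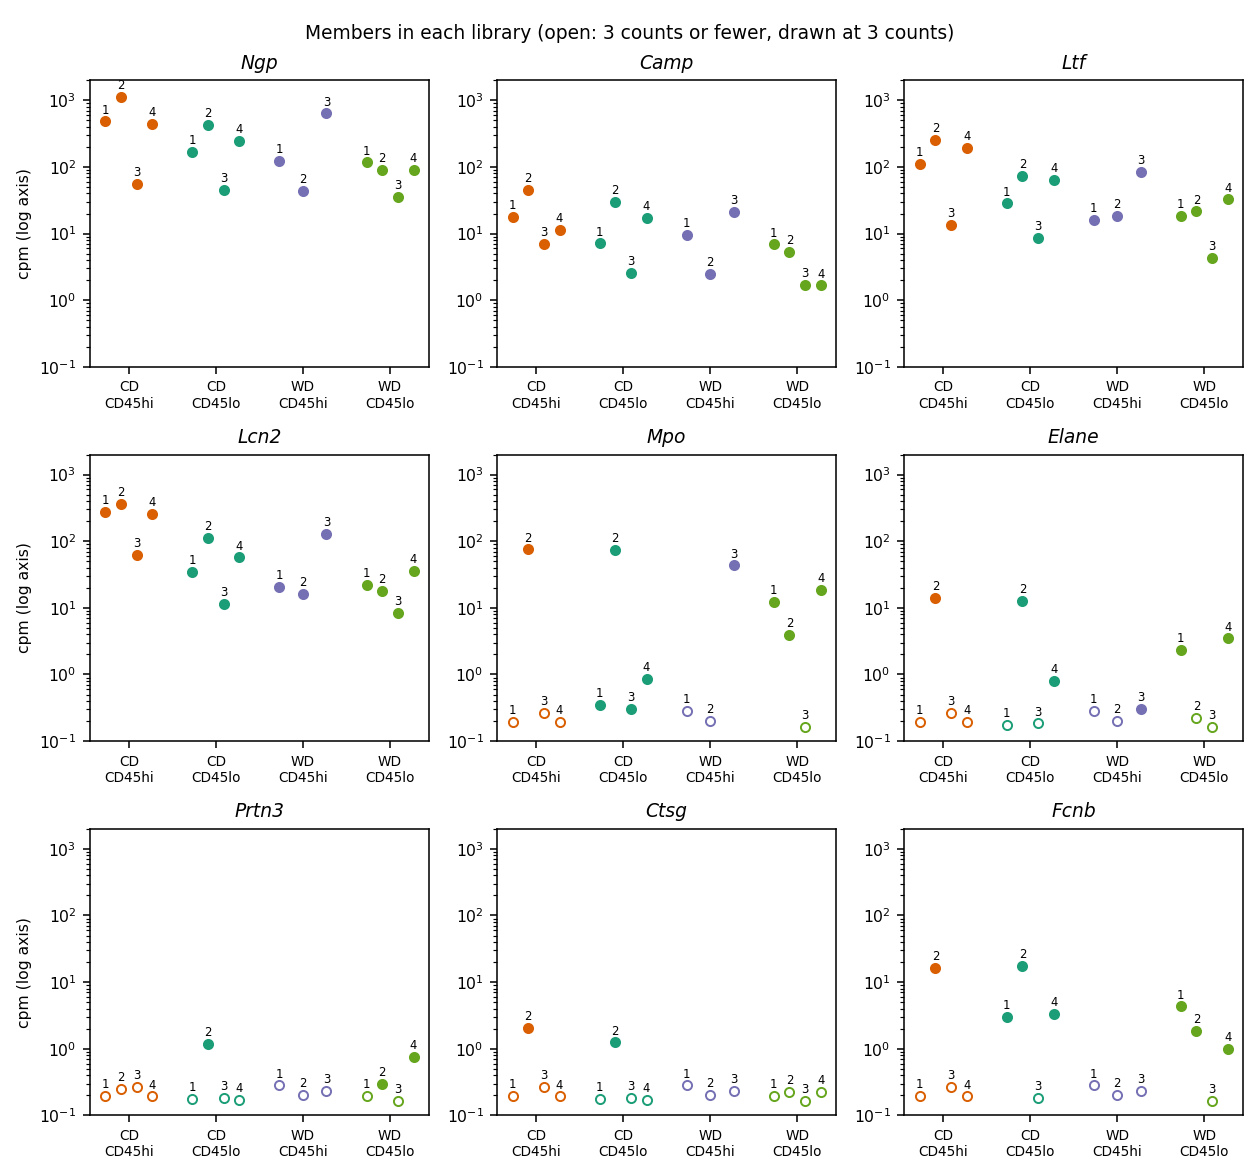
Level of each member in each library, in cpm after TMM scaling on a log axis. Points carry the replicate number, and open points are libraries with 3 counts or fewer, drawn at the value of 3 counts. The specific granule genes are filled in all 15 libraries, while the primary granule genes and Fcnb are filled in 2 to 9 of them.

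Ngp encodes neutrophilic granule protein, a secreted relative of the cystatins and cathelicidins. In the CD CD45hi libraries 1 to 4 it stood at 483, 1112, 55.2 and 446 cpm, and in the CD CD45lo libraries at 169, 427, 44.8 and 246 cpm. In the WD CD45hi libraries 1 to 3 the values were 122, 43.1 and 634 cpm, and in the WD CD45lo libraries 1 to 4 they were 117, 90.7, 35.4 and 91.0 cpm. Replicate 2 was the highest and replicate 3 the lowest in both sorts on the CD, and the ranges of the sorts overlapped on each diet. Within CD CD45hi the highest library was 20.2 times the lowest.

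Lcn2 encodes lipocalin 2, which withholds iron from bacteria by binding their siderophores. Its levels were 275, 360, 62.9 and 257 cpm in CD CD45hi and 35.1, 111, 11.5 and 57.3 cpm in CD CD45lo. On the WD they were 20.9, 16.1 and 130 cpm in CD45hi and 21.8, 18.0, 8.51 and 35.9 cpm in CD45lo. One CD CD45hi library, replicate 3, lay within the range of the CD CD45lo libraries, and the others lay above all of them. The WD CD45hi libraries 1 and 2 lay within the WD CD45lo range.

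Ltf, the gene of the iron-binding protein lactoferrin, stood at 111, 256, 13.5 and 195 cpm in CD CD45hi and at 28.4, 73.7, 8.73 and 63.8 cpm in CD CD45lo. The WD values were 16.0, 18.4 and 84.6 cpm in CD45hi and 18.2, 21.4, 4.34 and 32.5 cpm in CD45lo. Replicate 3 of the CD CD45hi group was again inside the CD45lo range. Camp encodes cathelicidin, the precursor of an antimicrobial peptide. It stood at 17.6, 45.7, 6.95 and 11.3 cpm in CD CD45hi, at 7.12, 29.9, 2.58 and 17.4 cpm in CD CD45lo, at 9.59, 2.48 and 21.0 cpm in WD CD45hi and at 6.88, 5.34, 1.70 and 1.67 cpm in WD CD45lo. All 4 groups overlapped, and library 2 led both sorts on the CD as it did for Ngp.

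Mpo encodes myeloperoxidase, which makes hypochlorous acid. Its expected counts were 0, 911, 0 and 3 in CD CD45hi and 6, 1428, 5 and 15 in CD CD45lo. In WD CD45hi they were 1, 1 and 567, and in WD CD45lo 189, 53, 0 and 245. The CD libraries numbered 2 therefore held nearly all the Mpo reads of their groups, at 75.4 cpm in CD45hi and 74.1 cpm in CD45lo. WD CD45hi replicate 3, with 43.5 cpm, held nearly all of those of its own group.

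Elane, the gene of neutrophil elastase, had 0, 171, 0 and 0 counts in CD CD45hi and 0, 248, 1 and 14 in CD CD45lo. It had 0, 0 and 4 counts in WD CD45hi and 36, 1, 1 and 46 in WD CD45lo. The CD libraries numbered 2 were again the highest in both sorts, with 14.2 and 12.9 cpm. Ctsg, the gene of cathepsin G, had 25 counts in CD CD45hi replicate 2, 24 in CD CD45lo replicate 2 and 2 in WD CD45lo replicate 4, and none elsewhere. Prtn3, the gene of proteinase 3, reached 23 counts in CD CD45lo replicate 2 and 10 in WD CD45lo replicate 4, and at most 4 in any other library.

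Fcnb encodes ficolin B, a lectin of myeloid cells that can start the lectin pathway of complement. It had 0, 199, 0 and 0 counts in CD CD45hi and 0 in each of the 3 WD CD45hi libraries. In CD45lo it had 51, 334, 1 and 58 counts on the CD and 66, 25, 1 and 13 on the WD. Thus 6 CD45lo libraries passed 3 counts, against 1 CD45hi library, and 6 of the 7 CD45hi libraries were at 0.

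Some other genes of early granulocytes were also highest in a CD library numbered 2, and others were not. Ms4a3, a marker of granulocyte and monocyte progenitors, stood at 9.69 cpm in CD CD45hi replicate 2 and at 1.14 cpm in CD CD45lo replicate 2, and at most 0.34 cpm elsewhere. Cebpe, the transcription factor of the specific granule stage, stood at 6.71 and 2.65 cpm in these libraries, and at most 1.21 cpm elsewhere. Gfi1, a repressor needed for neutrophil differentiation, reached 3.32 cpm in CD CD45lo replicate 2 and was at 0 in CD CD45hi replicate 2. These 3 genes and Myb, a progenitor factor at 10.4 cpm in CD CD45hi replicate 2, were chosen after their values were seen. Over the whole list of 7 progenitor markers, CD CD45hi replicate 2 had a summed level of 157 cpm, within the 142 to 238 cpm of its group. CD CD45lo replicate 2 had the lowest sum of its group, 170 cpm against up to 190 cpm. Cd34 made up most of each sum, with 111 and 138 cpm in these libraries. Gene by gene, Kit, Myb, Sox4 and Cpa3 were highest of their group in CD CD45lo replicate 2, while Cd34, Flt3 and Gata2 were not. In CD CD45hi replicate 2 Myb alone was highest of its group. Over the 12 cell cycle genes both libraries had the highest sum of their group. These sums were 554 cpm (313 to 554 cpm) and 229 cpm (178 to 229 cpm). Over the 15 mature neutrophil markers, CD CD45hi replicate 2 lay within its group with 3285 cpm (2121 to 4368 cpm), while CD CD45lo replicate 2 had the highest sum of its group, 866 cpm, with S100a8 at 52.1 cpm and 5.04 to 28.5 cpm in the other 3 libraries.

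**Figure D2:**
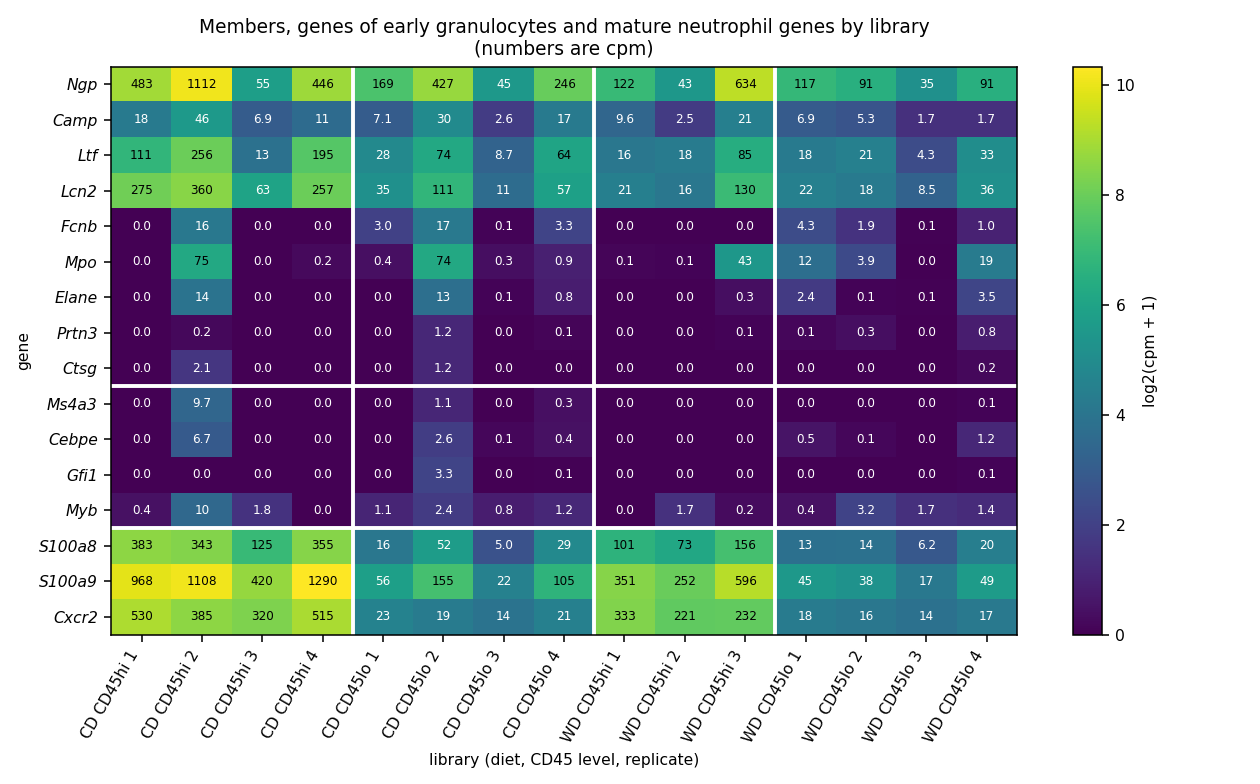
Level of the 9 members (top block), 4 genes of early granulocytes (middle) and 3 mature neutrophil genes (bottom) in each of the 15 libraries, coloured by log2(cpm + 1) with the cpm printed. The columns CD CD45hi 2 and CD CD45lo 2 are the ones where Mpo, Elane, Fcnb and Ctsg are all above 3 counts, and the mature genes separate the sorts instead.

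The comparison of CD45hi with CD45lo cells asks which genes separate the gates. No tested member was called on either diet by edgeR (glmTreat beyond 1.5-fold, false discovery rate (FDR) under 0.05 over 14967 genes): 0 of 8 on the CD, where 3.98% of all genes were called (3.39% higher and 0.588% lower), and 0 of 8 on the WD, where 5.18% were (4.01% higher and 1.17% lower). At an unadjusted p under 0.05 there was 1 member on each diet, Lcn2 on the CD and Fcnb on the WD, against 14% and 17.9% of all genes. DESeq2, tested against no difference with the 1.5-fold limit set afterwards, called the same 2 members, 1 on each diet. It called 1794 of the 14967 genes on the CD and 2296 on the WD. Its Fcnb estimate on the WD was -21.4 on the log2 scale. That value was fitted against 0 counts in every WD CD45hi library and is not a measured fold. Prtn3 did not pass the filter on low counts.

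On the CD, Lcn2 differed by 2.15 ± 0.721 (SE) on the log2 scale, higher in CD45hi, with an edgeR FDR of 0.168. Ltf differed by 1.72 ± 0.796, Ngp by 1.24 ± 0.798 and Camp by 0.52 ± 0.804. On the WD the same 4 genes differed by 1.40 ± 0.750, 1.05 ± 0.838, 1.68 ± 0.851 and 1.498 ± 0.871. All 8 estimates were positive, and none was called beyond 1.5-fold by the edgeR test, which does not pair the sorts. Against no difference (glmQLFTest), the unadjusted p was 0.0084 for Lcn2 (FDR 0.082) and 0.0456 for Ltf (FDR 0.237), both on the CD. No other of the 8 was under 0.05 by that test. The WD values rest on WD CD45hi replicate 3: without it they were -0.19 for Lcn2, -0.15 for Ltf and -0.02 for Ngp, and 0.63 for Camp. Without CD CD45hi replicate 2, Camp on the CD was -0.25 and Ngp 0.57.

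On the CD the sorts overlapped for all 9 members, while those of 16.5% of all genes did not. For the primary granule genes the estimates had standard errors of 2.05 to 2.70 on the log2 scale. On the CD, Mpo differed by -0.0021 ± 2.13 between the sorts and Elane by 0.04 ± 2.05, with mean levels of 18.9 cpm for Mpo in both. These values rest on the library numbered 2 in each sort. Without CD CD45hi replicate 2 the CD45hi libraries had no count of Elane or Fcnb and at most 3 of Mpo, and without CD CD45lo replicate 2 the differences were 5.19 for Mpo, 3.57 for Elane and 0.95 for Fcnb. On the WD, Mpo differed by 0.74. Fcnb differed by -0.53 ± 1.85 on the CD. On the WD its CD45lo mean of 1.81 cpm was at least 7.59-fold higher than in CD45hi cells, taking 3 counts per library for the libraries at 0, and it was the 1 member whose listed values did not overlap, as those of 23.4% of all genes did not. This rests on 1 count in WD CD45lo replicate 3, which at 3 counts or fewer cannot be told from the CD45hi libraries. The edgeR FDR of Fcnb on the WD was 0.226. Ctsg gave no fold on the WD, where neither sort passed 3 counts in any library. Prtn3 means were 0.0414 and 0.327 cpm on the CD (exact permutation test, two-sided p = 0.714, n = 4 and 4) and 0.0256 and 0.296 cpm on the WD (exact p = 0.229, n = 3 and 4, smallest possible 0.0571).

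Of the 15 mature neutrophil markers, 12 were called higher in CD45hi cells on each diet, and no tested granule member was. S100a8, a calcium-binding alarmin stored in the cytosol, was higher in CD45hi by 3.56 ± 0.570 on the log2 scale on the CD (edgeR FDR 0.00125) and by 3.05 ± 0.581 on the WD. Cxcr2, the chemokine receptor of neutrophils, was higher by 4.49 ± 0.237 and 4.00 ± 0.238. Retnlg, a resistin-like protein of granulocytes, was higher by 4.81 ± 0.750 and 4.19 ± 0.752. Whether these differences exceeded those of the members was not tested. On each diet 3 of the 15 were not called. Csf3r, the G-CSF receptor, was among them, with 0.40 ± 0.147 and -0.07 ± 0.159. For Ly6g, also in the list, the sorts overlapped on each diet, at 0 to 7.34 cpm in CD45hi and 0 to 1.63 cpm in CD45lo libraries.

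**Figure D3:**
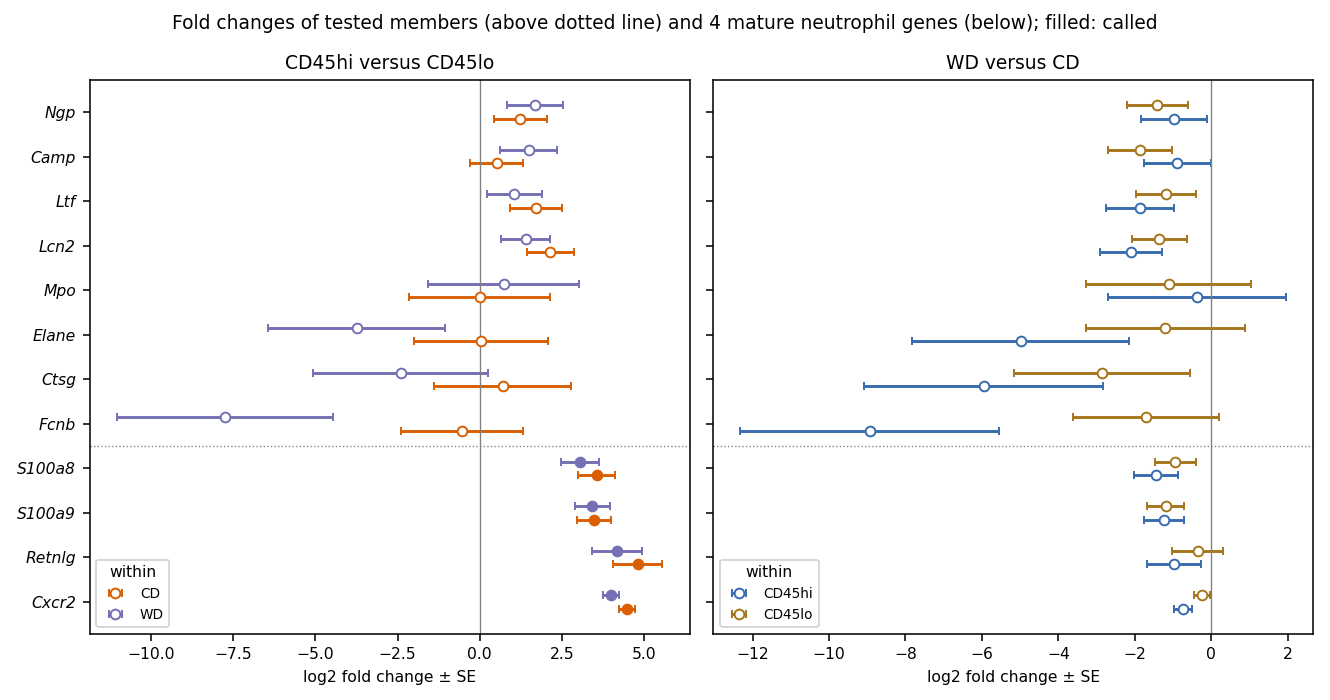
Log2 fold change with its SE for the 8 tested members and 4 mature neutrophil genes, CD45hi against CD45lo within each diet (left) and WD against CD within each sort (right). Filled points were called. No member is filled, S100a8, S100a9, Retnlg and Cxcr2 are filled on both diets at left, and all member points at right lie below 0. For Ctsg this follows from the filter, which it passed only through the CD libraries numbered 2. The points of Fcnb and Ctsg that involve WD CD45hi, where both had no counts, depend on the fit and are not bounds.

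The specific granule genes were also set against mature neutrophil genes of the same library. For each count of S100a8 there were 0.441 to 4.06 counts of Ngp in the 7 CD45hi libraries and 4.52 to 10.4 in the 8 CD45lo libraries, so every CD45lo library lay above every CD45hi library. Lcn2 gave 0.207 to 1.05 and 1.32 to 2.28 counts per count of S100a8, which did not overlap either. For Camp (0.0318 to 0.134 and 0.0827 to 0.608) and Ltf (0.108 to 0.747 and 0.699 to 2.24) the ranges overlapped. Per count of S100a9, the partner of S100a8, Ngp gave 0.131 to 1.06 and 1.84 to 2.99 counts, Ltf 0.0320 to 0.231 and 0.259 to 0.659, and Lcn2 0.0595 to 0.325 and 0.475 to 0.728, and none of these ranges overlapped, while Camp gave 0.00873 to 0.0413 and 0.0338 to 0.193, which did. Per count of Cxcr2 the ranges of all 4 genes overlapped, Ngp with 0.172 to 2.89 and 2.60 to 23.04 and Lcn2 with 0.0628 to 0.936 and 0.625 to 6.01. The ratios were chosen after the values were seen and carry no test. A ratio to S100a8 that was higher in every CD45lo library was found for 2 of the 8 tested members and for 46.6% of the 14967 genes, so it is not particular to the members, and for 1 of the 14 other mature neutrophil markers, Csf3r.

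**Figure D4:**
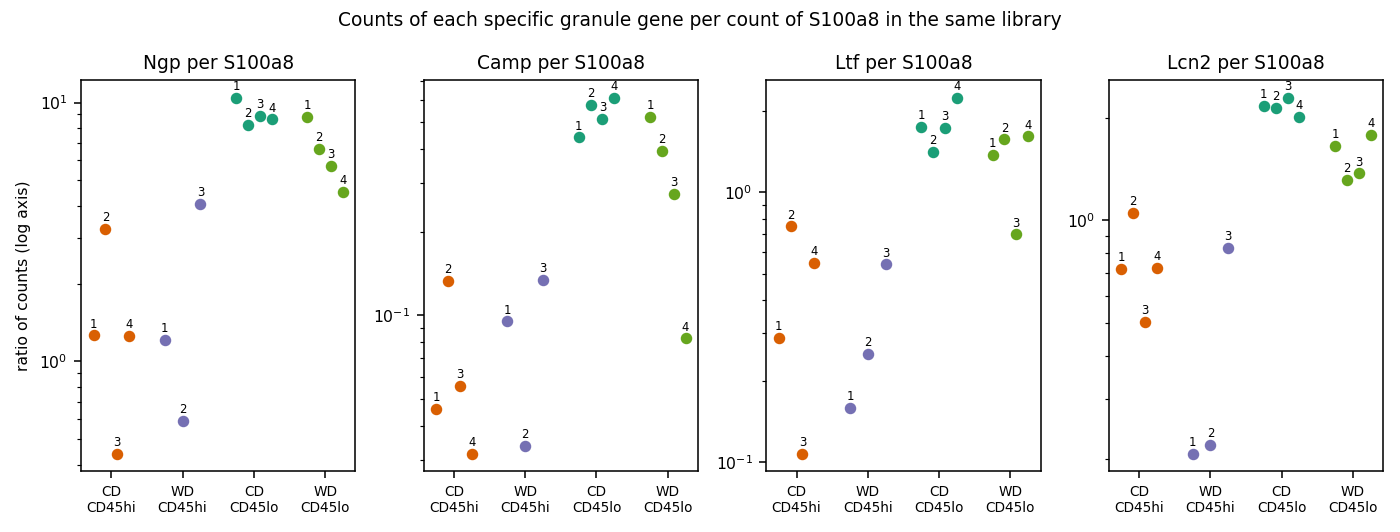
Counts of Ngp, Camp, Ltf and Lcn2 per count of S100a8 in the same library, on log axes, by group, with replicate numbers. The 8 CD45lo libraries lie above the 7 CD45hi libraries for Ngp and Lcn2, and the ranges overlap for Camp and Ltf.

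The diet comparisons ask whether the WD changed either sort. Here too edgeR (glmQLFTest) called 0 of 8 members in CD45hi cells, where 0.254% of all genes were called (0.0601% higher and 0.194% lower, a count of 38 that ran from 1 to 286 when 1 library was left out), and 0 of 8 in CD45lo cells, where 0% were. At an unadjusted p under 0.05 there were 2 members in CD45hi cells (Lcn2 and Fcnb), against 17.6% of all genes, and 1 in CD45lo cells (Camp), against 0.822%. DESeq2 called Fcnb in CD45hi cells and no member in CD45lo cells, beside 1030 and 4 of all genes. The Fcnb estimate, -22.6 on the log2 scale, was fitted to 0 counts in every WD CD45hi library and is not a measured fold.

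The estimates of all 8 tested members were lower on the WD in both sorts. Of these, Ctsg reached 1 cpm only in the CD libraries numbered 2 (2.07 cpm in CD45hi and 1.25 cpm in CD45lo). It passed the filter through them alone, so its lower estimate on the WD follows from the filter. The medians given next include it. Genes at 3 counts or fewer in every library of a group were set to their bound. The median was then -1.49 on the log2 scale in CD45hi and -1.28 in CD45lo cells, beside -0.02 and 0.00 over all genes tested. The mature neutrophil markers had lower estimates too, with a median of -0.98 over 15 genes in CD45hi and -0.73 in CD45lo cells, and in CD45hi cells their summed level was 2121 to 4368 cpm on the CD and 1607 to 2070 cpm on the WD, without overlap. EdgeR called 0 of the 15 in either sort, with 6 and 3 at an unadjusted p under 0.05, and DESeq2 called 2 lower in CD45hi and 0 in CD45lo cells. Their part in the member values was not tested. The members share libraries, so their directions are not independent of each other. In CD45hi cells Lcn2 differed by -2.10 ± 0.802 (edgeR FDR 0.193), Ltf by -1.86 ± 0.889, Ngp by -0.98 ± 0.870 and Camp by -0.89 ± 0.887. In CD45lo cells Camp differed by -1.87 ± 0.833 (edgeR FDR 1), Ngp by -1.41 ± 0.803, Lcn2 by -1.36 ± 0.709 and Ltf by -1.19 ± 0.790. The diet groups overlapped for every member in both sorts, while those of 5.77% of all genes in CD45hi and 2.42% in CD45lo cells did not.

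Single libraries set these diet values. Without WD CD45hi replicate 3, Lcn2 differed by -3.69 between the diets in CD45hi cells with an edgeR FDR of 0.0443, which called it, and Ngp by -2.67. Without CD CD45hi replicate 2, Ngp differed by -0.30 and Camp by -0.12. With the CD libraries numbered 2 left out of both sorts, Mpo turned from -0.38 to 7.60 in CD45hi and from -1.12 to 4.07 in CD45lo cells, and Elane from -4.99 to 3.73 and from -1.20 to 2.33. The CD CD45hi libraries then held at most 3 counts of Mpo and none of Elane, so 7.60 and 3.73 are fitted values and not measured folds. Without the CD libraries numbered 2, Ngp, Camp, Ltf and Lcn2 kept a negative estimate in both sorts, between -0.09 and -1.81, and no member was called. Fcnb, at 0 in all WD CD45hi libraries, was at least 17.3-fold higher in CD CD45hi by its mean of 4.12 cpm, which came from replicate 2 alone. The Prtn3 means differed by -0.0158 cpm in CD45hi (exact permutation test, two-sided p = 1, n = 3 and 4) and by -0.0303 cpm in CD45lo cells (exact p = 0.971, n = 4 and 4).

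The difference between the sorts was compared between the diets by the interaction term of the fit. EdgeR called 0 of 8 members and 0.00668% of all genes, and no member had an unadjusted p under 0.05, against 10.1% of all genes. DESeq2 called Fcnb. The interaction was -0.75 ± 1.03 on the log2 scale for Lcn2, -0.66 ± 1.15 for Ltf, 0.43 ± 1.16 for Ngp and 0.98 ± 1.18 for Camp.

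The members were among the more variable genes in CD CD45lo cells, from percentile 92.5 to 99.97 of all genes tested. Ctsg, at percentile 96.7 there, passed the filter only through the CD libraries numbered 2, so its spread in the CD groups follows from the filter. The SD of log2 cpm between the 4 CD CD45lo libraries was 1.38 for Ngp, 1.40 for Ltf, 1.38 for Lcn2 and 1.52 for Camp, against a median of 0.35 over all genes tested. These were the 92.5th to 94.7th percentile of all genes. Mpo, with an SD of 3.52, was at percentile 99.97. In CD CD45hi cells, where the median gene had an SD of 0.89, Ngp had 1.84, Ltf 1.92, Lcn2 1.13 and Camp 1.15, from the 60.2nd to the 81.0th percentile. All 8 tested members ran there from percentile 60.2 to 99.95 with a median of 82.1. In WD CD45hi cells they ran from 3.75 to 99.6 with a median of 67.0, the lowest being Ctsg and Fcnb, which had no counts. In WD CD45lo cells the 8 tested members ran from percentile 63.2 to 99.9 with a median of 85.8, and the SD of Ngp was 0.76.

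Other genes of the granule pathway were taken from lists and read by their counts. Of 19 tested genes of other granule proteins, 5 were called higher in CD45hi cells on the CD and 7 on the WD, and none lower. Among them Lyz2, lysozyme of neutrophils and macrophages, was higher by 3.21 ± 0.230 and 3.31 ± 0.238 on the log2 scale, and Cybb, the catalytic subunit of the phagocyte oxidase, by 3.92 ± 0.359 and 4.30 ± 0.375. Both also mark other macrophages. Of 10 genes that process or store granule proteins, 2 were called higher on each diet. These were Ctsc, which activates the granule serine proteases, at 0.99 ± 0.131 and 1.00 ± 0.139, and Srgn, the proteoglycan that packs them, at 2.43 ± 0.272 and 1.74 ± 0.279.

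Of 9 tested transcription factors of granulocyte development, edgeR called Cebpb alone higher, by 2.54 ± 0.453 on the CD and 2.18 ± 0.467 on the WD. Cebpa (-0.49 ± 0.242 on the CD) and Spi1 (0.93 ± 0.358), the gene of PU.1, were not called. Of 7 tested protease inhibitors, 2 were called higher on the CD, Slpi and Stfa2l1, and 1 on the WD, Stfa2l1. Slpi, the secretory inhibitor of elastase and cathepsin G, differed by 5.01 ± 1.21 on the CD and by 3.02 ± 1.16 on the WD. Of 11 tested receptors and partners, the formyl peptide receptor gene Fpr1 was called higher on both diets, Fpr2 was called higher and Masp1 lower on the WD.

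Markers of other cells moved between the gates as well, and their part in the member values was not tested. Of 7 classical monocyte markers, 4 were called higher in CD45hi cells on the CD and 2 on the WD, with summed levels of 609 to 1355 cpm in CD45hi and 63.7 to 210 cpm in CD45lo libraries. Of 12 cell cycle genes, edgeR called Mki67 alone, higher on both diets, and DESeq2 called 3 higher on the CD and 4 on the WD. Of 7 progenitor markers and 6 tested markers of basophils, mast cells and eosinophils, edgeR called none on either diet. At an unadjusted p under 0.05 there were 2 and 1 progenitor markers on the CD and the WD, and 0 and 2 markers of the other list, and DESeq2 called 1 progenitor marker on the CD and no other marker of these lists. Of 3 tested T and NK markers 2 were called higher on each diet, of 6 tested erythroid and platelet markers 1 on each diet, and of 5 tested B cell markers 1 on the WD. In the erythroid and platelet list, Pf4 stood at 27.2 to 122 cpm in CD45hi and 2.29 to 9.36 cpm in CD45lo libraries. The haemoglobin genes overlapped between the sorts, Hbb-bs with 8.45 to 62.3 cpm and 4.65 to 64.1 cpm. On the CD edgeR called 0 of the 5 B cell markers, with 2 at an unadjusted p under 0.05 and 0 called by DESeq2. Of 8 astrocyte and endothelial markers, 1 was called higher and 2 lower on the CD, and 1 higher on the WD.

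Across the 7 CD45hi libraries, the gene whose log2 cpm followed the mean of Ngp, Camp, Ltf and Lcn2 most closely was Mrgpra2b, a receptor gene, with Pearson's r = 0.980. It ran from 0 to 43.6 cpm with its highest value in CD CD45hi replicate 2. Retnlg came second with r = 0.969. The other 8 of the 10 closest were Gm12112, Coprs, Gm26702, Usp24, Lrrn4cl, Hist1h4j, Stfa1 and Abca13, with r from 0.937 to 0.958. Among the members themselves, Ngp and Ltf had r = 0.926 and Ngp and Camp 0.922 over these libraries, while Lcn2 and Mpo had 0.452. The libraries share their diet and their depth, and such values over 7 libraries describe these libraries only. The list depends on the measure: by Spearman correlation over the same libraries 0 of the 10 genes were shared, and by Pearson correlation over all 15 libraries 1 was, Mrgpra2b.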

How the data were processed

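Libraries were poly(A)-selected RNA of FACS-sorted brain myeloid cells, 1 per sample. The authors aligned reads through RSEM 1.2.12 to mm10 and deposited, for every gene of a library, RSEM's expected count (fractional where reads are shared) and a TPM value, which takes transcript length into account. The gene annotation release and the strand setting are not given in the sources used here. Expected counts were rounded (of the members only Mpo had a fraction, in 1 library). A gene was tested if 2 or more libraries reached 1 cpm (14967 of 38924 genes), which left 8 of the 9 members, all but Prtn3. Ctsg passed only through the CD libraries numbered 2. Scaling was by TMM. A single fit of the 4 groups took all 15 libraries, by the earlier quasi-likelihood form of edgeR 4.0.16 (R 4.3.3). glmTreat at 1.5-fold compared CD45hi with CD45lo cells within a diet, and glmQLFTest compared the diets and tested the interaction. FDR was Benjamini-Hochberg over all tested genes. Prtn3 was compared by an exact permutation test of cpm. The scripts were tested on simulated data. TPM was used only to order genes by level. A value of 3 counts was worth 0.156 to 0.282 cpm, a limit that reflects counting error alone.

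The members and lists were chosen with earlier results of these data known. The genes named were the 9 members, at most the 4 genes of each list with the highest mean cpm in CD45hi libraries and those called, and the 10 genes most like the specific granule members. Ms4a3, Cebpe, Gfi1, Myb, Kit, Cpa3 and Ly6g fall outside this rule and were chosen after their values were seen. The lists were other granule proteins, granule maturation, transcription factors, protease inhibitors, receptors, mature neutrophil, progenitor, cell cycle, monocyte, B cell, T and NK cell, basophil with mast cell and eosinophil, erythroid and platelet, astrocyte and endothelial, and microglia genes. Alternatives were DESeq2 1.42.0 and its size factors, other filters and fits, replicate blocks and each library left out. Groups came from the sample titles. The study describes its read counts as given per animal, so p-values measure spread between animals. In edgeR this spread was 1 estimate per gene shared by the 4 groups, not that of the 2 groups compared alone. Over all genes tested the median SD of log2 cpm was 0.89 in CD CD45hi and 0.91 in WD CD45hi libraries. It was 0.35 in CD CD45lo and 0.40 in WD CD45lo libraries. A shared estimate may be too small for CD45hi and too large for CD45lo cells. Which CD45hi and CD45lo libraries came from the same animal is not given in the sources used here.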

Additional observations from a re-analysis of the deposited data

Results flagged for a closer look

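In groups of 4 libraries, the highest library's gap to the next, divided by the range of the group, was above Dixon's 95% critical value for 8 of the 25 member and group combinations examined. Chance marks about 1 in 20 groups of normally distributed values, which cpm with many zeros are not. Where the other 3 libraries were at 0, the value was 1 whatever the count in the highest library. The combinations also share libraries. Every one of the 8 was a CD library numbered 2. In CD CD45hi replicate 2, Mpo stood at 75.4 cpm with the next library at 0.193, Elane at 14.2 cpm, Fcnb at 16.5 cpm and Ctsg at 2.07 cpm, with the other 3 libraries at 0 for each of the last 3 genes. In CD CD45lo replicate 2, Mpo stood at 74.1 cpm with the next library at 0.851, Elane at 12.9 cpm with the next at 0.794, Prtn3 at 1.19 cpm with the next at 0.113, and Ctsg at 1.25 cpm with the others at 0. Groups of 3 libraries were not examined in this way, so WD CD45hi replicate 3, with Mpo at 43.5 cpm beside 0.0941 and 0.0671, is not among the 8. The cause was not tested.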

How the results depend on the processing

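The count of 0 members called by edgeR became 1 under DESeq2 for CD45hi against CD45lo on the CD (Lcn2, FDR 0.0383) and on the WD (Fcnb), for the diets in CD45hi cells (Fcnb) and for the interaction (Fcnb). Between the sorts the rules differ, because DESeq2 was tested against no difference with the 1.5-fold limit set afterwards. Against no difference, the edgeR FDR of Lcn2 on the CD was 0.082 (glmQLFTest). Every Fcnb call rests on a group with 0 counts in each library, WD CD45hi. Other settings that turned an estimate, all on the log2 scale, were DESeq2 and its size factors for Mpo on the CD (0.024 and 0.022), the newer edgeR 4 form for Elane on the CD (-0.23), and log2(cpm + 1) for Prtn3 between the diets in CD45lo cells (0.0195).

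Sorts were also fitted with the replicate number as a block. Deviations of same-numbered libraries had correlations of -0.0217 to 0.0695 by title numbers and -0.000466 to 0.0695 by the numbers in the deposited tables. Such low values over all tested genes do not settle whether same-numbered libraries came from 1 animal. CD45hi libraries correlated best with their own number in 3 and 4 of 7 cases. With the block, Elane on the CD was -2.01 by either numbering, and Mpo on the WD -3.60 by titles and -0.64 by table numbers. By titles the interaction was -0.21 for Ngp and -1.81 for Mpo. By table numbers 1 member was called on the CD (Lcn2, 2.32, FDR 0.00157). By titles Lcn2 was not called there, although the numberings pair the CD libraries alike and differ only on the WD. A title block shared across diets, chosen after seeing the data, gave diet differences in CD45hi of 5.39 for Mpo and 0.60 for Elane, and in CD45lo of 3.77 for Mpo, 2.71 for Elane and 0.29 for Ctsg.

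Leaving out libraries, 1 at a time or both CD replicates numbered 2 (the latter chosen after seeing the data), gave 0 to 1 members called for the diets in CD45hi cells and 0 in the other comparisons. Between the sorts on the CD, Camp ran from -0.25 to 1.16, Mpo from -7.94 to 5.19, Elane from -8.70 to 3.57 and Fcnb from -9.48 to 0.95, with each lowest value without CD CD45hi replicate 2 and each highest without CD CD45lo replicate 2. On the WD, Ngp ran from -0.0153 to 2.18, Ltf from -0.15 to 1.44, Lcn2 from -0.19 to 1.84 and Mpo from -6.64 to 1.42, each lowest without WD CD45hi replicate 3. For the diets, Mpo ran from -7.76 to 7.60 and Elane from -8.73 to 3.75 in CD45hi, and Mpo from -1.80 to 4.07 and Elane from -2.04 to 2.33 in CD45lo cells. The interaction ran from -1.26 to 1.11 for Ngp, -6.64 to 8.68 for Mpo, -7.53 to 4.95 for Elane and -8.67 to 1.71 for Fcnb. Without CD CD45hi replicate 2 its group held no count of Elane or Fcnb and at most 3 of Mpo. Without WD CD45hi replicate 3 its group held no count of Elane or Fcnb and 1 of Mpo per library. Values set by these groups depend on the fit and are not measured folds. The causes were not tested.

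Over all genes, edgeR called 595, 775, 38, 0 and 1 in the 5 comparisons (the sorts on the CD and WD, the diets in CD45hi and CD45lo, and the interaction) and DESeq2 1794, 2296, 1030, 4 and 188. With the 1.5-fold limit set afterwards, as it was for DESeq2, edgeR called 1162 and 1335 between the sorts. For the diets in CD45hi, the newer edgeR 4 form gave 252 (161 higher and 91 lower, against 9 and 29), the 2 groups alone 0, the shared block 2, both CD replicates numbered 2 left out 8, and 1 library left out 1 (WD CD45lo replicate 2) to 286 (WD CD45hi replicate 2). The sorts on the WD gave 398 and 353 with a block. Low counts limit Elane, Prtn3, Ctsg and Fcnb, which passed 3 counts in 6, 3, 2 and 7 of 15 libraries.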
